A study of Homo sapiens with 3 samples.

Results

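The genes described here were 10 genes of the NF-kB pathway, namely the chemokines *CXCL1*, *CXCL2*, *CXCL3*, *CXCL8* and *CCL20*, the inhibitors *NFKBIA* and *TNFAIP3*, and the factors *RELB*, *NFKB1* and *NFKB2*. They were found on the arrays as the gene probes whose transcript accession matched one of these genes in a RefSeq table, which gave 12 probes, among 21612 genes with a matched probe in all. Of the 10 genes, 6 were well above background on each of the 3 arrays and had ratios between arrays, and 4 were never well above background. A probe was called well above background where the scanner software gave at least 50% of its spots that flag. Over the whole arrays 18121 probes, with or without a name, were well above background on each array and not among the dimmest, and 12031 named genes had at least 1 of them.

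NF-kB proteins are dimers of related factors that are held in the cytoplasm by inhibitor proteins. When a ligand such as tumor necrosis factor or interleukin-1 binds its receptor, a kinase complex (IKK) marks the inhibitors for degradation and the factors enter the nucleus, where they bind short DNA motifs known as kB sites. Their targets include chemokines that draw neutrophils and other leukocytes, which colon epithelial and colon cancer cells can secrete, as well as the inhibitors and factors themselves, so that the pathway feeds back on its own components.

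Gene expression was measured in HCT116 cells, an established human colon cancer cell line, after 48 h with 10 nM of control siRNA, siRNA #7 or siRNA #8. Both siRNAs were designed against *HOXA5* short RNA, a transcript of the *HOXA6*-*HOXA5* locus. All 3 cultures were of the same line, the labels name no added NF-kB ligand, and 400 ng of RNA from each was labeled with Cy3 and hybridized to 1 array per condition. No difference between a siRNA array and the control array therefore had a replicate check or a test, and both comparisons with control siRNA share the control array. The siRNA arrays were assigned by their sample titles; the deposited spot files number the siRNAs in another way, so each statement that sets siRNA #7 apart from siRNA #8 rests on the titles.

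The siRNA sequences are shown because both were directed at the same junction, with the bases they share in capitals.
siRNA #7: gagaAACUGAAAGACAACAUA
siRNA #8: AACUGAAAGACAACAUAggcg
Both were 21 bases long and shared 17 bases, shifted by 4 positions, so they are overlapping reagents against a single site and not independent target sites.

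Per array, 19069 to 20473 of 50599 gene probes were well above background, no spot was saturated, and the 75th percentile of intensity was 52.8 on the control array, 42.1 for siRNA #7 and 42.8 for siRNA #8. The scaled intensities given here are the deposited intensities multiplied so that the 75th percentile of each array equals that of the control array, and each log2 ratio is the difference of log2 scaled intensity. The spot-to-spot SD given with a ratio was taken from probes printed 10 times on an array, in 6 ranges of signal, and covers the spotting and scanning of these arrays but not the variation between cultures. For *HOXA5* itself, 1 probe was matched, at a log2 ratio of -0.36 for siRNA #7 (spot-to-spot SD 0.25) and -0.23 for siRNA #8 (SD 0.263). Whether it detects *HOXA5* short RNA was not tested, so it does not check the silencing. Of 9 colon epithelium markers 7 were measured, including *EPCAM*, *KRT8* and *CDX2*, whereas *KRT20* and *VIL1* were never well above background. Of the markers of other cell types, 1 of 5 macrophage genes with a matched probe (*CD68*) and 0 of 4 neutrophil genes with one were measured. In these 2 lists *LYZ* and *FCGR3B* had no matched probe, and *CD14* and *CSF3R* were well above background on some arrays only. Among 6 lymphocyte genes 1 (*CD79A*) and among 6 fibroblast genes 1 (*COL1A1*) were measured.

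**Figure D1:**
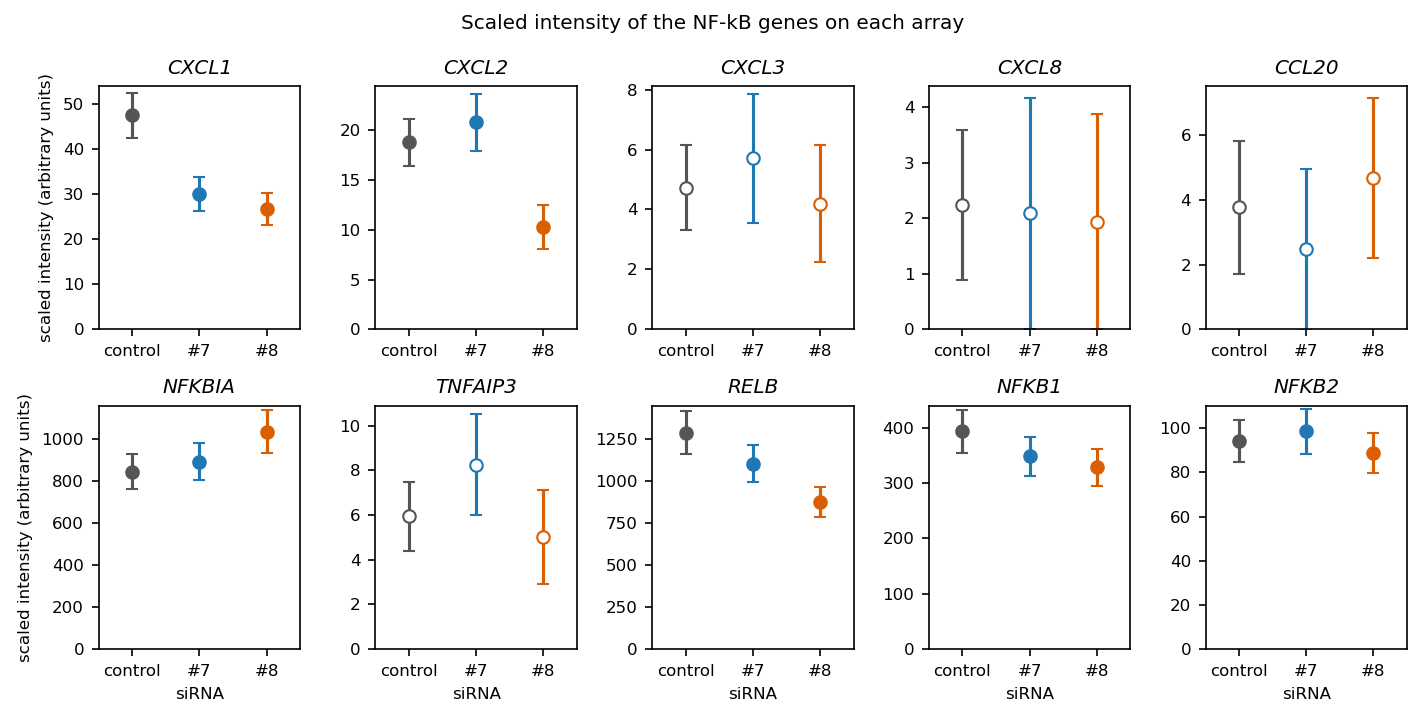
Scaled intensity (arbitrary units, linear axis from 0) of the 10 NF-kB genes with control siRNA, siRNA #7 and siRNA #8, 1 array each, with a separate axis for each probe. Bars are the scanner software's error of the spot signal, and open circles mark arrays on which the probe was not well above background; *CXCL1* and *RELB* were lower on both siRNA arrays than on the control array, and *CXCL3*, *CXCL8*, *CCL20* and *TNFAIP3* have open circles throughout.

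Of the 5 chemokines, only *CXCL1* and *CXCL2* were measured. *CXCL1* was lower with both siRNAs. The brighter *CXCL2* probe was lower with siRNA #8 and not with siRNA #7. *CXCL1* encodes a chemokine that attracts neutrophils through the receptor CXCR2. Its scaled intensity was 47.5 on the control array, 29.9 for siRNA #7 and 26.6 for siRNA #8. The value of the control array stood above those of both siRNA arrays, which lay close to each other. With siRNA #7 *CXCL1* was 1.59-fold lower, a log2 ratio of -0.67 with a spot-to-spot SD of 0.327. With siRNA #8 it was 1.78-fold lower, a log2 ratio of -0.84 with an SD of 0.343. Both ratios were just over 2 times their SD, and the siRNA arrays differed from each other by -0.17 (SD 0.38), which is within that error. Under normexp background correction the log2 ratios were -0.12 and -0.21, the closest to 0 of the alternatives. At these positions of the array the 13 neighbouring spots had median log2 ratios of 0.06 for siRNA #7 and 0.18 for siRNA #8, the opposite direction to *CXCL1*. A dimmer second *CXCL1* probe was well above background with control siRNA only. Its scaled intensities were 8.04 on the control array, 3.81 for siRNA #7 and 4.13 for siRNA #8. The scanner software's errors of these values were 1.72, 2.35 and 2.22. In RNA of whole cultures, fewer cells expressing a gene and less of its RNA per cell cannot be told apart.

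*CXCL2* encodes a close paralog with the same receptor. Its brighter probe had scaled intensities of 18.8 on the control array, 20.8 for siRNA #7 and 10.3 for siRNA #8. The siRNA #8 array stood alone, since the control and siRNA #7 arrays differed by a log2 ratio of only 0.15 (SD 0.4), a sign that turned under spike-in scaling. With siRNA #8 *CXCL2* was 1.83-fold lower than with control siRNA, a log2 ratio of -0.87 (SD 0.413). It was 2.02-fold lower than with siRNA #7, a log2 ratio of -1.02 (SD 0.38). The probe was dim on the siRNA #8 array, at a deposited intensity of 8.33. The lowest intensity called well above background on that array was 6.98. *CXCL2* was the only one of the 6 measured genes past 2-fold between the siRNAs. The second *CXCL2* probe read 16.2, 15.4 and 12.2 with control siRNA, siRNA #7 and siRNA #8. Its log2 ratios to control siRNA were -0.07 (SD 0.4) and -0.41 (SD 0.413). That probe gave the same order of the siRNAs but a smaller difference between them, -0.34 (SD 0.38). Each of its ratios was within its SD, so it showed no difference beyond its error. The 19 neighbours of the brighter probe had median log2 ratios of -0.05 for siRNA #7 and -0.20 for siRNA #8. With the median of the neighbouring spots removed, the siRNA #8 value was -0.67. The part of position in the siRNA #8 value was not tested beyond this. Under normexp the siRNA #8 value was -0.06, with no change of sign under any of the 10 alternatives.

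The remaining chemokines were never well above background. The deposited intensities of *CXCL3*, a further CXCR2 ligand, were 4.73 on the control array, 4.54 for siRNA #7 and 3.40 for siRNA #8. Those of *CXCL8*, which encodes interleukin-8, were 2.24, 1.66 and 1.57 in the same order. Those of *CCL20*, which attracts lymphocytes and dendritic cells through CCR6, were 3.78, 1.97 and 3.80. The lowest intensity of any probe called well above background was 6.13, 6.75 and 6.98 on these arrays, and no ratio was taken for these 3 chemokines. Of the 4 receptors of these chemokines, *CCR6* was measured at scaled intensities of 39.4, 45.6 and 36.5 (log2 ratios of 0.21 for siRNA #7 and -0.11 for siRNA #8), whereas *CXCR1*, *CXCR2* and *ACKR1* were never well above background.

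The bases upstream of the CXC chemokines are shown because these genes share a kB site just ahead of their starts, in RefSeq promoter windows on GRCh38.p14, each written in the direction of the gene with the 9 bases GGAATTTCC in capitals.
*CXCL1* (chr4:73869290-73869348, plus strand): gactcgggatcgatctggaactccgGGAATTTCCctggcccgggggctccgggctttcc
*CXCL2* (chr4:74099239-74099297, minus strand): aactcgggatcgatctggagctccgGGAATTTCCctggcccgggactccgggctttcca
*CXCL3* (chr4:74038734-74038792, minus strand): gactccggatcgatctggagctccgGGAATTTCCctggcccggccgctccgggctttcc
*CXCL8* (chr4:73740453-73740511, plus strand): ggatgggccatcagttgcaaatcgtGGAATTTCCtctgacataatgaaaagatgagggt
The site began 78 bases before the start of *CXCL1* and *CXCL3*, 77 before that of *CXCL2* and 91 before that of *CXCL8*. Lined up on the site without gaps, 55 of 59 bases were identical between *CXCL1* and *CXCL3*, 48 between *CXCL1* and *CXCL2*, and 24 between *CXCL1* and *CXCL8*. *CXCL2* lacks a base that *CXCL1* has shortly after the site, which puts its later bases out of register. The count of 48 is therefore too low, and these counts do not rank the pairs. *CXCL1* and *CXCL3*, alike in sequence here, held 1 measured gene and 1 that was never well above background. The transcripts of *CXCL1*, *CXCL2* and *CXCL3* are closely related too, and how far a probe for one also detects another was not tested.

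Over all genes with a window, and searching both strands of the 250 bases before the start, GGAATTTCC was found for 0.502% of 27305 genes and for 6 of the 9 members that had a window. The NF-kB consensus of 10 bases, which can overlap GGAATTTCC and can overlap itself on the other strand, was found for 6.28% of the genes and for 8 of the 9 members, with *CXCL8* as the exception. No window was given for *RELB*. These matches describe letters in a window and are not evidence of binding in HCT116 cells.

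Of the 2 inhibitors, *NFKBIA* was measured, and of the 6 measured members it was the only one with a higher value on the siRNA #8 array than on the control array. It encodes IkB-alpha, which holds NF-kB dimers in the cytoplasm and is itself an NF-kB target. Its probe was printed 10 times, and the scaled intensities of the 8 control spots kept after outlier flags ran from 791 to 897 with a median of 849. The 10 spots of the siRNA #7 array ran from 856 to 926 with a median of 899, and the 10 spots of the siRNA #8 array from 981 to 1108 with a median of 1032. The spots of siRNA #7 overlapped those of control siRNA, and those of siRNA #8 overlapped neither. The log2 ratio was 0.08 (SD 0.0518) with siRNA #7, with the sign turned under spike-in scaling and normexp. The log2 ratio was 0.29 (SD 0.0561) with siRNA #8, or 1.23-fold, and 0.05 under spike-in scaling. Between the siRNAs it was 0.21 (SD 0.0483). Because spots of 1 array share the RNA, the labeling and the scaling, the separation of the spots concerns these arrays and not the treatments.

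The sequence ahead of *NFKBIA* holds the same 9 bases on the opposite strand, 81 to 73 bases before the start, and is written in the direction of the gene so that the capitals are their reverse complement.
*NFKBIA* (chr14:35404797-35404855, minus strand): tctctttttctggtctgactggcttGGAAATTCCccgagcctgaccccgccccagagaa

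*TNFAIP3* encodes A20, a ubiquitin-editing enzyme that shuts off signaling from the receptors to IKK. Its deposited intensities were 5.94 on the control array, 6.57 for siRNA #7 and 4.06 for siRNA #8. None was called well above background, and no ratio was taken. The scanner software's errors of the scaled values were 1.53, 2.26 and 2.09.

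All 3 factors among the members were measured, and *RELB* and *NFKB1* were lower with both siRNAs while *NFKB2* was not different beyond its error. *RELB* encodes the factor that pairs with p52 in the noncanonical branch of the pathway. Its scaled intensity was 1287 on the control array, 1102 for siRNA #7 and 874 for siRNA #8. The arrays followed that order with no tie. The log2 ratio, read from 1 spot per array, was -0.22 (SD 0.141) with siRNA #7, which is under 2 times its SD. It was -0.56 (SD 0.156) with siRNA #8, or 1.47-fold lower. Between the siRNAs it was -0.33 (SD 0.153). Under spike-in scaling, which lowered the median of all genes on the siRNA arrays, the ratios to control siRNA were -0.55 and -0.80.

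*NFKB1* encodes p105, the precursor of the p50 subunit. Like the *NFKBIA* probe its probe was printed 10 times. The 9 spots kept with control siRNA had scaled intensities from 351 to 430 with a median of 389, the 8 spots with siRNA #7 from 334 to 363 with a median of 349, and the 10 spots with siRNA #8 from 308 to 354 with a median of 326. Both siRNA arrays lay below the control array in their medians, and their highest spots overlapped the lowest control spot. The log2 ratio was -0.18 (SD 0.0536) with siRNA #7 and -0.26 (SD 0.0579) with siRNA #8, or 1.13-fold and 1.20-fold lower. The siRNA arrays differed by -0.08 (SD 0.0543). These were small differences, each over 2 times the spot-to-spot SD for the comparisons with control siRNA and under 2 times it for the comparison between the siRNAs. Under spike-in scaling both were -0.50.

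The upstream window of *NFKB1* holds the 9 bases on the strand of the gene, 48 to 40 bases before the start of 1 of its 2 windows.
*NFKB1* (chr4:102501286-102501344, plus strand): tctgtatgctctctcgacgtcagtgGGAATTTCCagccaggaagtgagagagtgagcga

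*NFKB2* encodes p100, the precursor of p52. Its scaled intensity was 94.2 on the control array, 98.6 for siRNA #7 and 88.9 for siRNA #8. The 3 arrays lay within a narrow range. The log2 ratios were 0.07 (SD 0.25) with siRNA #7, with the sign turned under 3 of 10 alternatives, -0.08 (SD 0.263) with siRNA #8 and -0.15 (SD 0.227) between the siRNAs, all within their errors.

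**Figure D2:**
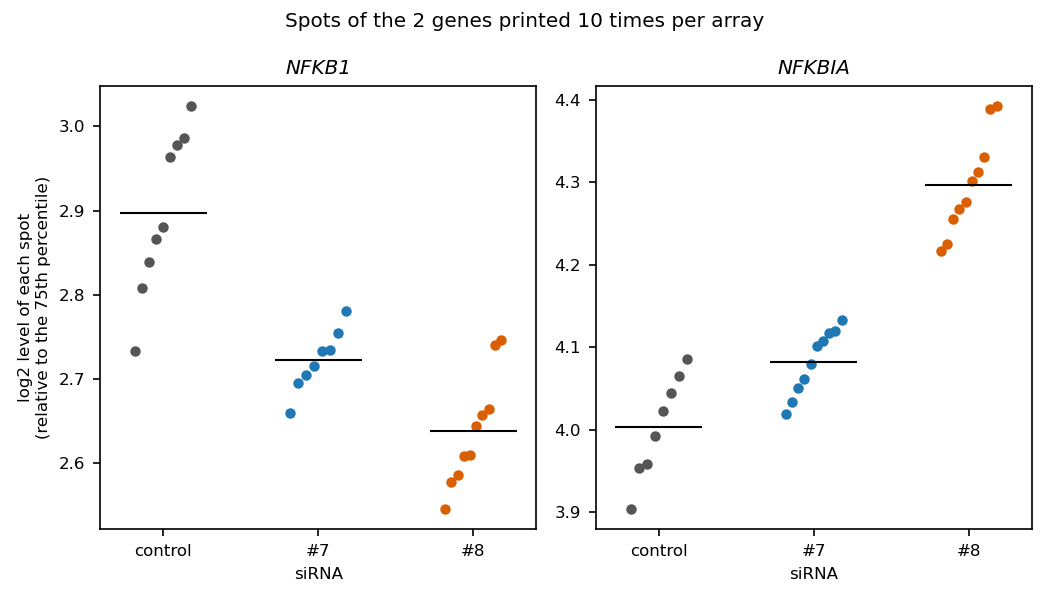
Log2 level of each kept spot, relative to the 75th percentile of its array, for *NFKB1* and *NFKBIA*, the 2 members printed 10 times, sorted within an array, with a line at the mean. The *NFKBIA* spots of siRNA #8 (4.22 to 4.39) lie above all those of control siRNA (3.90 to 4.09), whereas for *NFKB1* the lowest control spot (2.73) lies below the highest spots with siRNA #7 (2.78) and siRNA #8 (2.75).

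With siRNA #7, 3 of the 6 measured members were higher and 3 lower, with a median log2 ratio of -0.05 beside 0.02 over all 12031 genes. None passed 2-fold, against a background of 2.22% of all 18121 probes at least 2-fold higher and 1.86% lower, or 4.08% in either direction. With siRNA #8, 1 was higher and 5 were lower, with a median of -0.41 beside 0.01 over all genes, of which 49.2% were lower. None passed 2-fold, and the background was 2.29% higher and 2.85% lower, or 5.14% in either direction. At least 1.5-fold lower were *CXCL1* with siRNA #7, beside 7.24% of all probes, and *CXCL1* and *CXCL2* with siRNA #8, beside 9.86%. Between the siRNAs, 1 of 6 (*CXCL2*) was at least 2-fold lower with siRNA #8, beside 2.41% of probes higher and 3.17% lower, or 5.58% in either direction. *CXCL1*, *RELB* and *NFKB1*, 3 of the 6, were lower with both siRNAs, as were 30.3% of all genes. Over all genes the 5th and the 95th percentile of the log2 ratio were -0.67 and 0.70 with siRNA #7 and -0.82 and 0.72 with siRNA #8, so the values of *CXCL1* lay at or just beyond the lower percentile with both siRNAs, that of *CXCL2* lay just beyond it with siRNA #8, and the other 4 genes lay inside these limits.

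**Figure D3:**
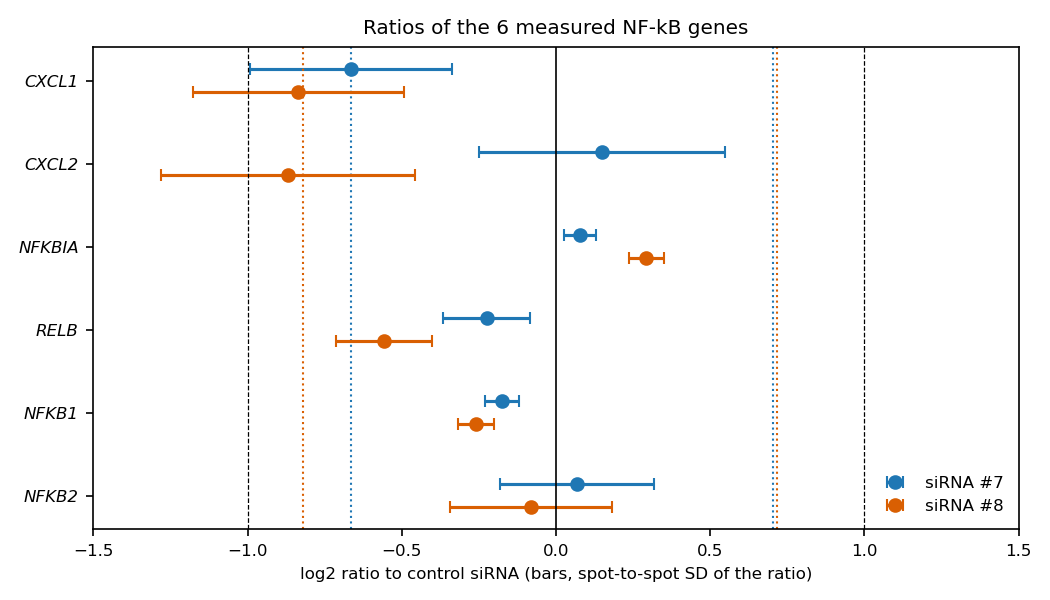
Log2 ratio to control siRNA (x axis) of the 6 measured members for siRNA #7 and siRNA #8, 1 array each, with bars for the spot-to-spot SD of the ratio. Dashed lines mark 2-fold and dotted lines the 5th and 95th percentile of all genes for each siRNA; *CXCL1* lies left of 0 with both siRNAs, *CXCL2* with siRNA #8 only, and no gene reaches the dashed lines.

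Joining both siRNA arrays into 1 silenced group against the control array, limma called 2 of 18121 probes at an adjusted p under 0.05, or 0.011%, and neither was a member (they belong to *LBX1* and *PLEKHA1*, named after their values were seen). In this fit the lone control array is assumed to vary like the siRNA arrays, and 672 probes, or 3.71%, had an unadjusted p under 0.05. No member did, and limma's adjusted p was 1.0 for each of the 6. With 1 residual degree of freedom, the lack of a call says nothing about whether the members differed.

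The rest of the pathway was taken from 6 lists of 86 further genes, of which 49 were measured and 30 were never well above background. With siRNA #7, 27 were higher and 22 lower, beside 48.3% of all genes lower. The median log2 ratio was 0.02, and its sign turned under 4 of 8 alternatives. None was past 2-fold. Under spike-in scaling 2 were at least 2-fold lower, beside 5.17% of all probes. With siRNA #8, 16 were higher and 33 lower, beside 49.2% of all genes lower. The median was -0.24 and lay between -0.48 and -0.14 under the alternatives. Of the 49, 5 were at least 2-fold lower and none higher, beside 2.85% and 2.29% of all probes. Under normexp 2 were at least 2-fold lower (*CHUK* and *IER3*) and none higher, beside 1.24% and 0.453% of all probes. Under the 75th percentile over detected probes 3 were lower (*TAB3*, *BIRC3* and *IER3*) and 2 higher, beside 2.41% and 2.7%. Under quantile normalization 5 were lower and 1 higher, beside 2.78% and 2.3%. No other alternative put a gene past 2-fold higher. Among these others, median scaling gave 6 lower, beside 3.34% of all probes, and spike-in scaling 7, beside 5.58%. Between the siRNAs, 14 were higher and 35 lower with siRNA #8, beside 51.2% of all genes lower, with a median of -0.23. Of the 49, 2 were at least 2-fold lower (*TNIP2* and *TAB3*), beside 3.17% of all probes.

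Most of the signals that start the pathway were not detected above background in these cells. Of 18 ligands and receptors, 11 were never well above background, among them the ligands *TNF*, *IL1A*, *IL1B* and *LTA* and the receptors *TLR2* and *TLR4*. The receptor genes *IL1R1*, *IL1RAP* and *TLR3* were well above background on some arrays or probes only. The 4 that were measured were the receptors *TNFRSF1A*, *LTBR*, *CD40* and *TLR5*, with log2 ratios from -0.09 to 0.38 for siRNA #7 and from -0.31 to 0.15 for siRNA #8. For *CD40*, a second probe gave 0.33 with siRNA #7 and -0.90 with siRNA #8, against 0.14 and -0.24 for the brighter probe used. Both remaining factors were measured, and their median log2 ratio of 0.06 with either siRNA turned sign under 4 of 8 alternatives with siRNA #7 and 2 of 8 with siRNA #8. *RELA*, which encodes the p65 subunit, had log2 ratios of 0.02 (SD 0.0496) with siRNA #7 and 0.20 (SD 0.0565) with siRNA #8. *REL* had 0.10 (SD 0.4) and -0.08 (SD 0.413).

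Among the IKK genes and adaptors, 18 of 21 were measured, 10 lower and 8 higher with siRNA #7 and 12 lower and 6 higher with siRNA #8. *CHUK*, which encodes the kinase IKK-alpha, had scaled intensities of 1494 on the control array, 1073 for siRNA #7 and 725 for siRNA #8. Its log2 ratios were -0.48 (SD 0.141) and -1.04 (SD 0.156), lower on both siRNA arrays. *TAB3*, an adaptor of the kinase TAK1 upstream of IKK, had scaled intensities of 32.5, 29.9 and 11.6 and log2 ratios of -0.12 (SD 0.4) and -1.48 (SD 0.413). The *TAB3* probe was dim on the siRNA #8 array, and its ratio there was -0.27 with normexp.

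Among the other inhibitors, 7 of 9 were measured, 4 lower and 3 higher with either siRNA. *TNIP2*, which encodes a partner of A20, had scaled intensities of 159 on the control array, 169 for siRNA #7 and 76.9 for siRNA #8. The control and siRNA #7 arrays were close for this gene, at a log2 ratio of 0.08 (SD 0.164) whose sign turned under 2 of 10 alternatives, and the siRNA #8 array was lower, at -1.05 (SD 0.211). Over the alternatives the siRNA #8 value was -1.29 to -0.66, under 2-fold in 3 of 10. The log2 ratio between the siRNAs was -1.13 (SD 0.203).

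Among the other NF-kB targets, 17 of 32 were measured, 7 lower and 10 higher with siRNA #7 and 12 lower and 5 higher with siRNA #8. *IER3*, an early response gene induced by NF-kB and by growth factors, had scaled intensities of 10780 on the control array, 7840 for siRNA #7 and 5159 for siRNA #8. Its log2 ratios were -0.46 (SD 0.141) and -1.06 (SD 0.149), and a second *IER3* probe gave -0.64 and -1.23. *BIRC3*, which encodes the apoptosis inhibitor cIAP2, had scaled intensities of 46.9, 26.6 and 22.1 and log2 ratios of -0.82 (SD 0.327) and -1.09 (SD 0.343). Under normexp the *BIRC3* ratios were -0.23 and -0.29. Both genes were lower on both siRNA arrays, with the lower value in each on the siRNA #8 array.

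Set beside these were 20 genes of interferon response and RNA sensing, of which 19 had a matched probe and 12 were measured. The median log2 ratio of those measured was 0.26 for siRNA #7 and 0.18 for siRNA #8, which turned sign under 1 and 3 of 8 alternatives. Of 15 immediate early and AP-1 genes 13 were measured, with medians of 0.02, which turned sign under 3 of 8 alternatives, and -0.23, which was between -0.47 and -0.18 under them. In the latter list *EGR1*, named after its values were seen, was past 2-fold with siRNA #8 (log2 ratio -1.08, and -0.93 with siRNA #7). The other NF-kB genes as 1 group and the immediate early list thus had medians near 0 with siRNA #7 and below 0 with siRNA #8, and the differences between these lists were not tested.

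**Figure D4:**
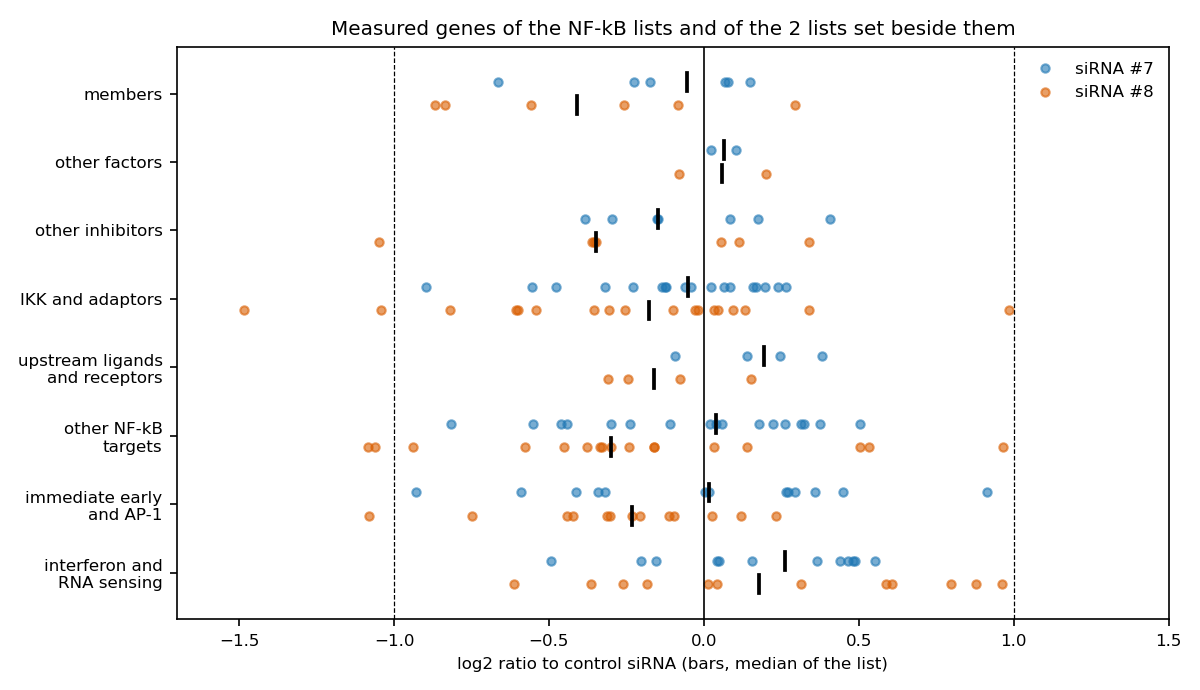
Log2 ratio to control siRNA (x axis) of every measured gene in the NF-kB lists (*CCR6* apart), the immediate early and AP-1 list and the interferon list, 1 point per gene and siRNA, with a bar at the median of each list and dashed lines at 2-fold. With siRNA #8, 5 genes of the other NF-kB lists lie beyond the lower dashed line, as does *EGR1*, and none lies beyond either line with siRNA #7.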

How the data were processed

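Gene expression was measured on 1 Agilent SurePrint G3 array per condition. The deposited spot intensity is the background-subtracted output of Agilent Feature Extraction 11.5.1.1, unscaled. A further table deposited by the authors held log2 values of 21189 probes, whose differences between arrays had a slope of 1.0 to those of the log2 intensities and which were centred on each probe's median over the arrays. Their normalization method is not given in the sources used here.

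Spots with outlier flags were left out (313 to 413 per array), the spots of a probe were averaged on the log2 scale, and the 75th percentile of the gene probes was subtracted (Python 3.11.15, numpy 2.4.6, pandas 2.3.3). Passing probes were well above background on each of the 3 arrays and reached the 20th percentile on 2 or more. Genes were read from their brightest passing probe. Symbols came from RefSeq accessions matched without versions. limma 3.58.1 (R 4.3.3) was an alternative with Benjamini-Hochberg adjustment. Promoter windows were RefSeq sequences 250 bases before to 50 after a start, of which the upstream bases were searched and shown.

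The members and gene lists were chosen with earlier results of these data known. All members are named, and genes of the other NF-kB lists past 2-fold with either siRNA. List genes never well above background, receptors that were measured or detected only in part, and the other factors were named as examples by role. One marker gene is not reported here. The alternatives were scaling on array medians, quantile normalization, the 75th percentile over detected probes, E1A spike-in probes, normexp with an offset of 50 on median signals (no mean column was used here), the deposited log2 values, 2 other filters, the mean of the passing probes, removal of the median of neighbouring spots within 3 rows and columns, a threshold of 1.5-fold and limma. The 2-fold call and the limma call were tested on simulated probe levels, and the other steps were not. With 1 array per condition, the number of arrays limits the precision.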

Additional observations from a re-analysis of the deposited data

How the results depend on the processing

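No member's log2 ratio to control siRNA changed sign with siRNA #8 under the 10 alternatives that give one. Of these, the 2 other filters left the values of the measured members unchanged. The mean of the passing probes moved only *CXCL2*, and the deposited values lay very close to the main ones. These alternatives therefore say little about the signs. With siRNA #7, the signs of *CXCL2* (spike-in scaling), *NFKBIA* (spike-in scaling and normexp) and *NFKB2* (median, spike-in scaling and normexp) turned. Spike-in scaling moved the median of all genes by -0.33 with siRNA #7 and -0.24 with siRNA #8, and the median of the members to -0.38 and -0.65; 2 members, *CXCL1* (-1.08) and *CXCL2* (-1.11), then passed 2-fold with siRNA #8, where 5.58% of all probes were 2-fold lower under this scaling. Normexp moved the members' median with siRNA #8 to -0.15, with *CXCL1* at -0.21 and *CXCL2* at -0.06. Removal of the neighbours' median put 1 member past 2-fold with siRNA #8 (*CXCL1*, -1.02), beside 2.59% of all probes lower. At 1.5-fold 1 member was lower with siRNA #7, beside 7.24% of all probes, and 2 with siRNA #8, beside 9.86%. With both siRNA arrays joined in limma, the median was -0.29. The threshold and the joining of arrays act by construction. So do spike-in and median scaling, which shift every log2 ratio of a comparison by the same amount. The cause of the other moves was not tested. Over the alternatives the log2 ratio of *CXCL1* was -0.99 to -0.12 for siRNA #7 and -1.08 to -0.21 for siRNA #8, that of *RELB* for siRNA #8 was -0.80 to -0.51, and that of *NFKB1* for siRNA #8 was -0.50 to -0.21. No paired analysis was possible because there was 1 array per condition. The signal over background limits *CXCL3*, *CXCL8*, *CCL20* and *TNFAIP3*, for which no difference was detectable.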
